A study of Mus musculus with 20 samples.

Results

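The centriole assembly genes followed here were Cep63, Cep152, Plk4, Stil, Sass6, Cep135, Cenpj, Ccp110 and Cntln, 9 genes taken for their known roles in building centrioles. Cntln and Plk4 were also chosen by their measured change, as they had been noted to move in opposite directions by mid-pachytene. Their probe sets were those that the platform annotation gives to 1 of these genes alone. They came to 13 of the 45037 probe sets on the array, and 12 of the 13 were tested. The 9 genes stand among 18193 that have a probe set of their own. The arrays (Affymetrix MOE430 version 2.0) measured RNA from the testis of male C57BL/6 x DBA/2J F1 mice, 10 to 16 weeks old in the sample labels and untreated as far as the labels tell. Cells had been sorted on Hoechst 33342, a DNA dye whose red and blue fluorescence separates germ cells by DNA content and chromatin state. Of the 20 arrays, spermatogonia and round spermatids had 4 each, pre-leptotene and leptotene-zygotene spermatocytes 3 each, mid-pachytene and diplotene 2 each, and early-pachytene and late-pachytene 1 each. Each RNA sample pooled several sorts, and leptotene and zygotene cells were not separated, so a value describes a mixture and not 1 animal or 1 cell. Fewer cells of a kind in a fraction and less RNA per cell cannot be told apart in such samples.

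Centrioles are barrels of microtubules that organise the centrosome and template cilia and flagella. A new centriole forms once per cycle at the side of an old one. Cep63 and Cep152 form a ring around the mother centriole that recruits the kinase Plk4, Plk4 phosphorylates Stil, and Stil brings in Sass6, which builds the cartwheel that sets the symmetry of the barrel. Cep135 ties the cartwheel to the wall, Cenpj adds tubulin and lets the wall grow, and Ccp110 caps the far end and restrains both length and cilium formation. Cntln encodes centlein, a protein of the linker that holds the centrosome's centrioles together. Spermatocytes duplicate centrioles before both meiotic divisions, and round spermatids use one centriole as the base of the flagellum.

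The signal of 1 probe set can be compared between arrays but not with that of another probe set. Values below are log2 GC-RMA signals, on which a difference of 1 is a doubling of signal, and a value under 5 (a signal of 32) was taken as near background. On the linear scale the median signals of the arrays were 11.1 to 12.7, and 34.6 to 39.8% of probe sets reached 32. The spermatogonia arrays carried RNA of other cells. Of 8 macrophage genes, 6 had a mean of at least 5 there, against 0 or 1 in each later fraction, with a summed signal of 935 to 2630 in spermatogonia and at most 123 from leptotene-zygotene on. The summed signal of 8 round spermatid genes was 42900 to 166000 in spermatogonia, 24200 to 37100 in pre-leptotene and 27700 to 44300 in leptotene-zygotene. It was 47700 in early-pachytene, 56200 to 61600 in mid-pachytene, 17200 in late-pachytene, 33000 to 34300 in diplotene and 93100 to 123000 in round spermatids. Mid-pachytene was thus above the lowest spermatogonia array. In pre-leptotene the macrophage sum ran from 64.0 to 962, so that 1 array there reached the range of spermatogonia. Of 8 Sertoli cell genes, 1 to 3 had a mean of at least 5 in each fraction, with a summed signal of 456 to 6430 over all arrays. They were Clu, at 9.74 to 12.52 by fraction, Cldn11 and Wt1, both at most 6.02 by fraction, while Sox9, Amh and Gata4 were under 5 on every array. The germ cell labels were also checked against their own markers. The 8 spermatogonial genes summed to 36600 to 51600 in spermatogonia, 45000 to 52900 in pre-leptotene and 43100 to 54800 in leptotene-zygotene, and did not separate these 3 fractions. They summed to 17000 to 23400 in mid-pachytene and 278 to 1700 in round spermatids. The 8 pachytene genes summed to 6490 to 25100 in spermatogonia, 2960 to 7770 in pre-leptotene and 14800 to 33600 in leptotene-zygotene. Their sums in diplotene (102000 to 134000) and round spermatids (96800 to 126000) overlapped. The 8 early meiotic prophase genes summed to 21600 to 27700 in leptotene-zygotene and 24500 to 36100 in mid-pachytene. The part of these other transcripts in the changes below was not tested, but the late against early comparison is also given without the spermatogonia arrays and without each pre-leptotene array.

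Sequences upstream of the genes are shown first because Plk4 and Cntln, which moved apart, share a run of letters there. RefSeq's table for GRCm38.p6 gave the 250 bases before a transcript start for 9 of 9 genes. E2F factors, which drive genes of the G1 to S transition, bind TTCCCGC among other forms. These letters, read on both strands, lay upstream of 3 of the 9 genes and of 3.82% of 32851 promoters. The 30-base windows around them, on the strand of the gene and with the E2F letters or their reverse complement in capitals, were chr3:40799819-40799848 (plus strand) for Plk4, chr4:84884182-84884211 (plus strand) for Cntln and chr2:125625270-125625299 (minus strand) for Cep152.
Plk4: aaaagactttctGCGGGAAgccaaagccct
Cntln: ggcgttaggaggGCGGGAAagtcaggcact
Cep152: gctccgggaagcTTCCCGCcgccactggcg
The match began 120 bases before the start of Plk4, 115 before that of Cntln and 174 before that of Cep152. The brightest Plk4 probe set and Cep152 were lower late in prophase and Cntln was higher, so that these letters stood before genes of either direction. The Cntln window lies inside the annotated Cntln gene, whose outermost start is further upstream, while no annotated gene overlaps the windows of Plk4 and Cep152. The whole 250 bases before the start of Plk4, chr3:40799701-40799950 on the plus strand, are given with the E2F letters, a MYB match (CNGTTG) and the core letters of the cyclic AMP response element (TGACG), each on the minus strand, in capitals.
Plk4 upstream: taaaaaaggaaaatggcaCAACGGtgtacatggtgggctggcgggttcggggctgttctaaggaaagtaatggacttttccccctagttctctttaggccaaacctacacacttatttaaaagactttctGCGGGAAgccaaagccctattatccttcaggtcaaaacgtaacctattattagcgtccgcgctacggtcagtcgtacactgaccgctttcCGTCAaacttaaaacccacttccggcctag
CNGTTG lay before 6 of the 9 genes against 29.3% of all promoters, TGACG before 4 against 17.8%, the NF-Y letters CCAAT before 3 against 33.8%, and the TTTGAA of the cell cycle genes homology region before 1 against 16.0%. A second E2F form (TTGGCGC) and the RFX letters (GTTGCC, which can overlap CNGTTG) lay before 0 of the 9, against 1.97% and 10.4%. The share of G and C in the 250 bases was 47.2% for Plk4 and 61.6% for Cntln, with a median of 52.4% over all promoters. A match is a run of letters and not a shown binding site.

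**Figure D1:**
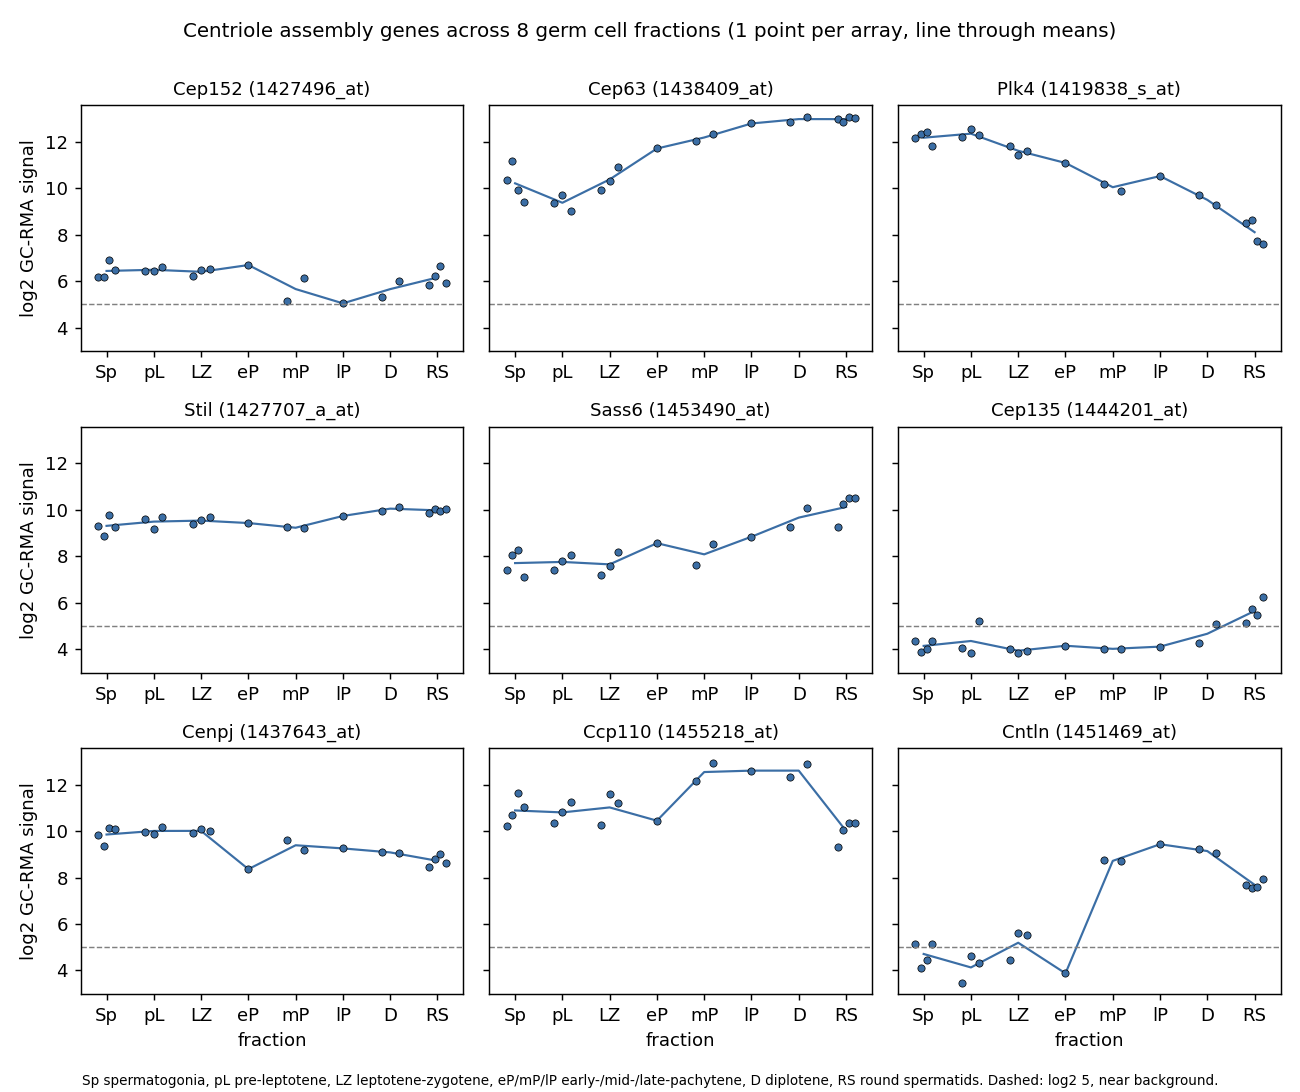
log2 GC-RMA signal (vertical axis, shared by all panels) of the main probe set of each of the 9 genes in the 8 fractions (horizontal axis). Points are arrays, lines join the fraction means and the dashed line marks 5. Plk4 falls from 12.36 in pre-leptotene to 8.11 in round spermatids, Cntln steps from 3.88 in early-pachytene to 8.72 in mid-pachytene, and Ccp110 is high from mid-pachytene to diplotene only.

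The mean of late-pachytene and diplotene, late in prophase, was compared with the mean of spermatogonia and pre-leptotene (3 against 7 arrays). These early cells come before meiotic prophase, and leptotene-zygotene, its first fraction, is not in this comparison. The early arrays are among those from which Plk4 and Cntln had been noted to depart, so that their values here are descriptions with no test. Of the other 7 genes, 3 rose (Cep63, Ccp110 and, by 1 of its 2 probe sets, Sass6) and 2 fell (Cep152 and Cenpj). Stil and Cep135 did not pass the test. In this comparison 67.8% of all tested probe sets changed, 30.1% upwards and 37.7% downwards (6745 and 8443 probe sets, or 7668 and 7330 after median centring), so that 5 of 7, or 71.4%, is near the background and no property of these genes. The median change of the 9 genes was 0.49 and that of all tested probe sets -0.26. All p-values are from limma, two-sided and adjusted over all 22396 tested probe sets. Without the spermatogonia arrays, or without any 1 pre-leptotene array, 5 of the 7 again passed, 3 upwards and 2 downwards.

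Of the ring proteins that recruit Plk4, Cep63 rose and Cep152 fell. Cep63 stood at 10.38, 11.17, 9.91 and 9.40 in spermatogonia and at 9.38, 9.71 and 9.04 in pre-leptotene. It was 9.94, 10.31 and 10.90 in leptotene-zygotene, 11.72 in early-pachytene, 12.06 and 12.33 in mid-pachytene, 12.80 in late-pachytene, 12.88 and 13.09 in diplotene, and 13.01, 12.84, 13.06 and 13.02 in round spermatids. Every array from early-pachytene on was above every earlier one. Late in prophase Cep63 was higher by 3.09 (SE 0.33, adjusted p = 4.65e-07), or 8.54-fold, and by 3.51 against pre-leptotene alone. It also rose between leptotene-zygotene and mid-pachytene by 1.81 (SE 0.41, adjusted p = 0.00477), which missed the threshold without the second mid-pachytene array (1.67, adjusted p = 0.0643). No single step between neighbouring fractions passed for Cep63, although the means increased at each step from pre-leptotene to diplotene. Its second probe set (1446482_at) was between 2.00 and 3.36 on all arrays and was not tested.

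Cep152 was dim and varied little. Its fraction means were 6.44 ± 0.34 (SD, n = 4) in spermatogonia, 6.49 ± 0.12 (n = 3) in pre-leptotene, 6.40 ± 0.17 (n = 3) in leptotene-zygotene and 6.69 on the early-pachytene array. They were 5.66 ± 0.70 (n = 2) in mid-pachytene, 5.04 in late-pachytene, 5.66 ± 0.47 (n = 2) in diplotene and 6.16 ± 0.37 (n = 4) in round spermatids. The late-pachytene and diplotene arrays lay below all 7 early ones, and Cep152 fell by 1.12 (SE 0.28, adjusted p = 0.00195). The rise of 0.50 from diplotene to round spermatids did not pass (adjusted p = 0.32). Cep63 and Cep152 therefore moved apart late in prophase, the one 8.54-fold higher and the other 2.17-fold lower.

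Plk4, the kinase that starts duplication, gave 3 probe sets that did not follow one course. The brightest (1419838_s_at; the suffix marks probes that can match more than 1 transcript or gene) stood at 12.18, 12.33, 12.41 and 11.81 in spermatogonia, 12.21, 12.56 and 12.29 in pre-leptotene, and 11.81, 11.42 and 11.63 in leptotene-zygotene. It was 11.09 in early-pachytene, 10.20 and 9.89 in mid-pachytene, 10.53 in late-pachytene, 9.73 and 9.28 in diplotene, and 8.49, 8.62, 7.72 and 7.61 in round spermatids. From leptotene-zygotene on, the arrays of neighbouring fractions did not overlap, and late-pachytene was the one fraction above the fraction before it. The difference between mid-pachytene and leptotene-zygotene was -1.57 (SE 0.33), which is among the values that chose the gene and is not tested here. Late against early the difference was -2.25 (SE 0.26), or 4.77-fold, again with no test. From diplotene to round spermatids the probe set fell by 1.39 (SE 0.31, adjusted p = 0.0042). This fall rests on few arrays. Without diplotene replicate 1 it was -1.17 (adjusted p = 0.0772), and fitted on the fractions compared alone it had an adjusted p of 0.0518.

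The other Plk4 probe sets followed other courses. Probe set 1426580_at stood between 9.07 and 10.75 in spermatogonia and pre-leptotene, at 10.43 in late-pachytene, 10.69 and 10.68 in diplotene, and 10.81, 11.04, 10.84 and 10.66 in round spermatids. Its late minus early difference was 0.48 (SE 0.36), or 0.89 when array project was a block. Probe set 1452115_a_at, whose suffix marks several transcripts of 1 gene, had a difference of -0.53 (SE 0.26). From diplotene to round spermatids these probe sets differed by 0.15 (adjusted p = 0.88) and 0.45 (adjusted p = 0.342). The signal of the brightest set minus that of 1426580_at was 2.19 ± 0.62 (SD, n = 7) in spermatogonia and pre-leptotene and -0.76 ± 0.77 (n = 3) in late-pachytene and diplotene. The shift was -2.94, and it was -4.85 between spermatogonia and round spermatids (4 against 4 arrays). Against 1452115_a_at the shifts of the brightest set were -1.88 and -4.10. In each of these the arrays of the groups did not overlap. Late against early, Plk4 was therefore lower by its brightest probe set. The other 2 probe sets had differences of unlike sign, 0.48 for 1426580_at and -0.53 for 1452115_a_at, with arrays of the groups overlapping. With array project as a block 1426580_at was higher by 0.89, against the direction of the brightest set. In round spermatids Plk4 was below diplotene by 1 of the 3. Which transcripts the probes match was not analysed here.

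**Figure D2:**
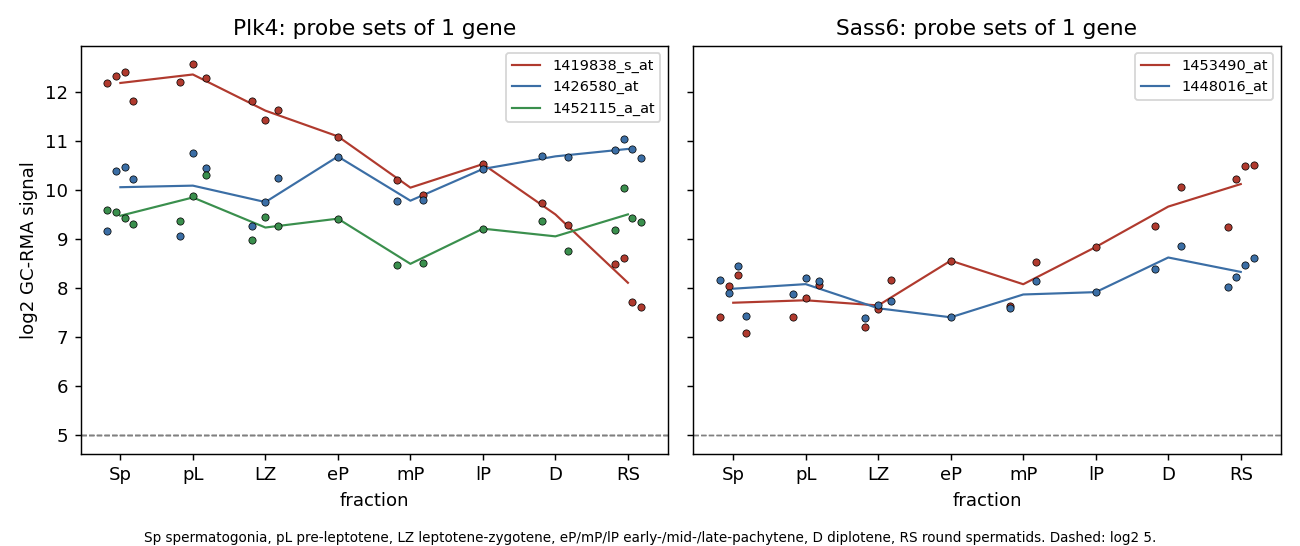
log2 GC-RMA signal (vertical axis) of the 3 probe sets of Plk4 (left) and the 2 of Sass6 (right) in the 8 fractions (horizontal axis). Points are arrays and lines join fraction means. The brightest Plk4 set falls from 12.18 in spermatogonia to 8.11 in round spermatids while 1426580_at is at 10.06 and 10.84, and Sass6 1453490_at climbs to 10.12 while 1448016_at stays between 7.39 and 8.85.

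Stil, the Plk4 substrate, was nearly level until mid-pachytene and slightly higher afterwards. Its fraction means ran from 9.23 ± 0.03 (SD, n = 2) in mid-pachytene to 10.05 ± 0.13 (n = 2) in diplotene. In round spermatids it was 9.86, 10.05, 9.96 and 10.04, above every array up to mid-pachytene. The late minus early difference of 0.49 (SE 0.22, adjusted p = 0.0545) missed the threshold. It passed when array project was a block (0.58, adjusted p = 0.0189), after median centring (0.73, adjusted p = 0.00947) and without the late-pachytene array (0.65, adjusted p = 0.0257) or spermatogonia replicate 3 (0.57, adjusted p = 0.0193).

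Sass6, the cartwheel protein, rose late by its brighter probe set. On 1453490_at it was 7.42, 8.04, 8.26 and 7.09 in spermatogonia, 7.41, 7.79 and 8.06 in pre-leptotene, and 7.21, 7.57 and 8.16 in leptotene-zygotene. Later arrays gave 8.56 in early-pachytene, 7.63 and 8.53 in mid-pachytene, 8.84 in late-pachytene, 9.26 and 10.07 in diplotene, and 9.25, 10.23, 10.5 and 10.51 in round spermatids. The late-pachytene and diplotene arrays lay above all early ones, and the rise was 1.52 (SE 0.37, adjusted p = 0.00167), or 2.87-fold. Diplotene was above mid-pachytene by 1.58 (SE 0.51, adjusted p = 0.0398), the 1 member called in that comparison, in which 19.3% of all probe sets were called. That call was lost without mid-pachytene replicate 1 (1.13, adjusted p = 0.3) or diplotene replicate 2 (1.18, adjusted p = 0.28), and the other probe set differed by 0.75 (adjusted p = 0.154). It was kept under 9 of 14 alternatives. The other probe set, 1448016_at, differed late against early by 0.24 (SE 0.25, adjusted p = 0.419). The signal of 1448016_at minus that of 1453490_at moved from 0.30 ± 0.29 (SD, n = 7) to -1.0 ± 0.19 (n = 3), a shift of -1.30 (exact permutation test, two-sided, p = 0.0167, the smallest that 3 against 7 arrays allow, and 0.0327 after adjustment over 8 such tests computed for Plk4 and Sass6), and by -2.08 from spermatogonia to round spermatids (exact permutation p = 0.0286, 0.0327 adjusted).

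Cep135, which joins the cartwheel to the wall, was under 5 on 14 of the 16 arrays before round spermatids. In round spermatids it was 5.11, 5.73, 5.48 and 6.24, and above 5 on all 4. The difference from diplotene was 0.98 (SE 0.38, adjusted p = 0.0731), or 0.60 with values under 5 raised to 5, and it passed only without round spermatids replicate 1 (1.16, adjusted p = 0.0408).

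Cenpj (also called CPAP), which supplies tubulin to the growing wall, fell modestly. Its fraction means were 9.86 ± 0.36 (SD, n = 4), 10.01 ± 0.15 (n = 3) and 10.02 ± 0.09 (n = 3) in spermatogonia, pre-leptotene and leptotene-zygotene. They were 9.40 ± 0.30 (n = 2) in mid-pachytene, 9.26 in late-pachytene, 9.09 ± 0.01 (n = 2) in diplotene and 8.73 ± 0.23 (n = 4) in round spermatids. The fall late against early was 0.76 (SE 0.22, adjusted p = 0.0055), 1.70-fold, without overlap of the arrays. The early-pachytene array stood out with 8.37, below all 19 others. Against leptotene-zygotene this was -1.65 (SE 0.35, adjusted p = 0.0199), the 1 member called in a comparison with 4.76% of probe sets called (362 higher and 703 lower, or 676 and 371 after median centring). It rests on 1 array, which was assumed to vary like the others, and the call was lost with array project as a block (adjusted p = 0.0857) and without leptotene-zygotene replicate 2 (-1.60, adjusted p = 0.0603).

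Ccp110, the cap that restrains centriole length and cilium formation, was high in a window. It was 10.21, 10.68, 11.65 and 11.04 in spermatogonia, 10.35, 10.81 and 11.28 in pre-leptotene, 10.28, 11.60 and 11.21 in leptotene-zygotene and 10.46 in early-pachytene. It then stood at 12.17 and 12.94 in mid-pachytene, 12.61 in late-pachytene, and 12.34 and 12.89 in diplotene, and returned to 9.31, 10.04, 10.37 and 10.35 in round spermatids. The 5 arrays from mid-pachytene to diplotene lay above all 15 others. Against leptotene-zygotene, mid-pachytene was higher by 1.52 (SE 0.48, adjusted p = 0.027), a call lost without leptotene-zygotene replicate 1 (1.15, adjusted p = 0.108) or mid-pachytene replicate 2 (1.14, adjusted p = 0.263). The rise late against early was 1.76 (SE 0.38, adjusted p = 0.000685), or 3.38-fold, and the fall from diplotene to round spermatids 2.60 (SE 0.46, adjusted p = 0.000783), or 6.05-fold. Within the array projects that held both fractions the fall was -3.03 and -2.51. Cep97, which binds Ccp110 and acts with it at the cap, rose late by 4.14 (SE 0.34, adjusted p = 3.75e-08) from an early mean of 4.62, near background, or by 3.68 with values under 5 raised to 5. It fell by 2.02 (SE 0.41, adjusted p = 0.00223) from diplotene to round spermatids. The other Cep97 probe set rose by 1.58 (adjusted p = 0.000218) and fell by 1.2 (adjusted p = 0.0231).

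Cntln, which encodes the linker protein centlein, went from near background to well above it between early- and mid-pachytene. It was 5.16, 4.09, 4.47 and 5.12 in spermatogonia, 3.45, 4.64 and 4.30 in pre-leptotene, 4.44, 5.61 and 5.53 in leptotene-zygotene, and 3.88 on the early-pachytene array. From then on it was 8.74 and 8.71 in mid-pachytene, 9.44 in late-pachytene, 9.23 and 9.06 in diplotene, and 7.67, 7.57, 7.58 and 7.95 in round spermatids. The 9 arrays from mid-pachytene on lay above all 11 earlier ones, with the round spermatid arrays as the lowest of the 9. The difference of 3.53 (SE 0.42) between mid-pachytene and leptotene-zygotene and that of 4.85 (SE 0.56) between mid- and early-pachytene are values for which the gene was noted and are not tested here. Late against early the difference was 4.87 (SE 0.33), likewise with no test. Because the early arrays were near background, the ratio is a bound, and with values under 5 raised to 5 Cntln was at least 19.1-fold higher. In round spermatids Cntln fell by 1.45 (SE 0.40, adjusted p = 0.0133), or 2.74-fold. That call was lost without diplotene replicate 1 (-1.37, adjusted p = 0.11) or replicate 2 (-1.54, adjusted p = 0.0533), while the 4 round spermatid arrays lay below both diplotene arrays.

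**Figure D3:**
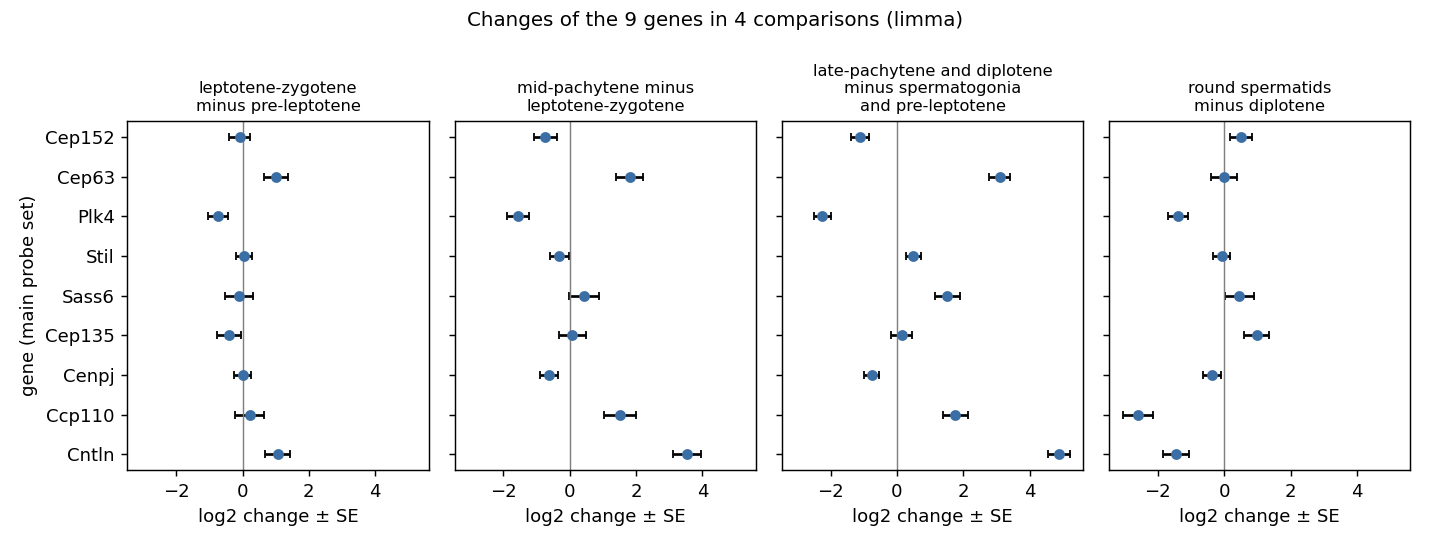
Log2 change with its standard error (horizontal axis) of the main probe set of each gene (vertical axis) in 4 comparisons. In the third panel Cntln is at 4.87 and Plk4 at -2.25, and in the fourth Ccp110 is at -2.60. The points of Plk4 and Cntln in the second and the third panel are descriptions.

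By step, the changes of the 9 genes were uneven. Between pre-leptotene and spermatogonia 0 of 9 passed with limma (1 had an unadjusted p under 0.05; 0.487% of all probe sets were called), and between leptotene-zygotene and pre-leptotene 0 of 9 (3 unadjusted; 2.02%). Without leptotene-zygotene replicate 1, Cntln differed by 1.44 in the latter, from values near background. With values under 5 raised to 5 the difference on all arrays was 0.38. Leptotene-zygotene is a fraction from which Cntln had been noted to depart, so these values are descriptions. Mid-pachytene against leptotene-zygotene gave 4 of 9, namely Cep63, Ccp110 and Cntln upwards and Plk4 downwards, beside 28.9% of all probe sets. As Plk4 and Cntln were noted for this change, nothing is read from that count. Mid- against early-pachytene called 1 (Cntln, again among the values that chose it; 1.87%). Late- against mid-pachytene called 0 of 9 (0 unadjusted; 4.28%), and diplotene against late-pachytene 0 of 9 (1 unadjusted; 0.00893%), in fits where late-pachytene is 1 array. From diplotene to round spermatids 0 of 9 rose and 3 fell (Ccp110, Cntln and Plk4), against 25.1% of all probe sets called and 14.2% called lower. Over all probe sets 2431 were called higher and 3181 lower at this step, or 2992 and 2555 after median centring of the arrays. Stil, Sass6, Cep63 and Cep152 did not pass there, with differences of -0.07 (SE 0.26), 0.46 (SE 0.44), 0.00 (SE 0.39) and 0.50 (SE 0.33).

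The wider set of centriole genes held 79 genes in 6 lists, of which 73 were tested by the probe set of highest mean. Late against early, 36 rose and 21 fell, beside the 67.8% called of all probe sets, 30.1% higher and 37.7% lower. The same shares hold for each list below. The median change was 0.78, against -0.26 for all. Where a gene had further tested probe sets (57 probe sets of 40 genes), 37 were called the same way as the main one, 1 the other way, and 10 were not called, while for 9 the main one was itself not called.

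All 4 centrins, small calcium-binding proteins of the centriole lumen, changed. Cetn1, the germ cell form, rose by 5.74 (SE 0.50, adjusted p = 6.51e-08), Cetn4 by 4.21 (SE 0.49, adjusted p = 1.35e-06) and Cetn3 by 1.09 (SE 0.22, adjusted p = 0.000327). Cetn2 fell by 4.70 (SE 0.39, adjusted p = 3.85e-08). The centrins were singled out by the study on these arrays, so that they are no independent evidence of a direction. Cetn1 was also the 1 centrin called between pre-leptotene and leptotene-zygotene, with a rise of 3.40 (SE 0.57, adjusted p = 0.00983), which missed the threshold without pre-leptotene replicate 1 (3.02, adjusted p = 0.0595) or leptotene-zygotene replicate 3 (2.68, adjusted p = 0.0512).

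Among 15 regulators of duplication, 6 rose and 4 fell, beside 30.1% and 37.7% of all probe sets. Fbxw5, a ubiquitin ligase subunit that targets Sass6, rose by 4.03 (SE 0.50, adjusted p = 2.57e-06) and the scaffold Wdr62 by 3.38 (SE 0.25, adjusted p = 1.29e-08). Usp33, which removes ubiquitin from Ccp110, fell by 3.07 (SE 0.29, adjusted p = 1.5e-07), and Ccnf, the cyclin F that sends Ccp110 to degradation, by 2.54 (SE 0.25, adjusted p = 2.25e-07). From diplotene to round spermatids Ccnf rose by 1.84 (SE 0.30, adjusted p = 0.000458) while Ccp110 fell, and Plk1 rose by 1.45 (SE 0.35, adjusted p = 0.0069), or by 1.01 (adjusted p = 0.151) without diplotene replicate 1. At that step Ccne2 fell by 3.25 (SE 0.52, adjusted p = 0.000365) and Cdk2 by 2.51 (SE 0.48, adjusted p = 0.00135), a cyclin and a kinase of the S phase. The arrays measure RNA and not protein, and any link between the changes of Ccnf and Ccp110 was not tested.

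Of 24 genes of the centriole wall and its elongation, 13 rose and 6 fell, beside 30.1% and 37.7% of all probe sets. By the main probe sets Cep97 and Ppp1r35 had the largest rises, of 4.14 and 3.49 (SE 0.50, adjusted p = 1.24e-05). Wdr90, a protein of the inner wall, fell by 5.57 (SE 0.51, adjusted p = 9.48e-08), or by 4.87 with values under 5 raised to 5. Ofd1, an X-linked gene whose product controls centriole length, fell by 4.44 (SE 0.32, adjusted p = 9.43e-09). Both recovered in part in round spermatids, Wdr90 by 2.89 (SE 0.61, adjusted p = 0.00271) and Ofd1 by 1.59 (SE 0.38, adjusted p = 0.0064). These calls were lost without diplotene replicate 1 for Wdr90 (1.44, adjusted p = 0.106) and without replicate 2 for Ofd1 (1.41, adjusted p = 0.0631).

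Of 11 tested genes of the appendages of the mother centriole, 8 rose and 0 fell. Over all probe sets 30.1% rose and 37.7% fell. The remaining 3 genes (Cep83, Cep170 and Cntrl) did not pass, with differences of -0.16, -0.72 and -0.22. Ttbk2, a kinase that removes the Ccp110 cap at the start of cilium formation, rose by 3.55 (SE 0.28, adjusted p = 2.45e-08), and Fbf1 by 3.44 (SE 0.29, adjusted p = 4.25e-08). In round spermatids Ttbk2 fell by 1.30 (SE 0.34, adjusted p = 0.01), Fbf1 by 1.24 (SE 0.35, adjusted p = 0.0152) and Cep170 by 1.37 (SE 0.38, adjusted p = 0.015). The other Cep170 probe set did not pass at this step (-0.64, adjusted p = 0.62). None of the 3 falls passed without diplotene replicate 1 (-1.06, -0.99 and -1.03, adjusted p = 0.139, 0.176 and 0.197), and the other probe set of Ttbk2 had a difference of 0.31 (adjusted p = 0.49).

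Among 17 tested genes of the pericentriolar material and the linker, 5 rose and 9 fell, beside 30.1% and 37.7% of all probe sets. Tubgcp3 and Tubg1, of the gamma-tubulin complex that nucleates microtubules, fell by 3.32 (SE 0.23, adjusted p = 6.29e-09) and 3.18 (SE 0.49, adjusted p = 2.45e-05), and Cep72 and Nek2 rose by 3.09 (SE 0.35, adjusted p = 1.07e-06) and 2.03 (SE 0.42, adjusted p = 0.000444). Nek2 is the kinase that dissolves the linker of which centlein is a part. The linker partners Cep250 and Cep68 were named after their values were seen and are not among the largest falls of the list. They fell by 0.86 (SE 0.33, adjusted p = 0.0303) and 1.27 (SE 0.42, adjusted p = 0.0147) in the comparison in which Cntln was higher. Cep68 fell by a further 2.71 (SE 0.51, adjusted p = 0.00121) in round spermatids. Other genes of the list, among them Crocc and Lrrc45, are not described here. Without diplotene replicate 2 the late differences were -0.49 (adjusted p = 0.182) for Cep250 and -0.93 (adjusted p = 0.0809) for Cep68. Cep250 also missed the threshold without pre-leptotene replicate 1 or 3 (-0.77 and -0.82, adjusted p = 0.0625 and 0.0552) and after quantile normalization (-0.49, adjusted p = 0.238) or median centring (-0.62, adjusted p = 0.0927). Without the spermatogonia arrays Cep68 differed by -1.13 (adjusted p = 0.0751). Of the 4 other Cep68 probe sets, 3 fell late against early (by 0.95, 2.43 and 3.90, adjusted p = 0.0271, 1.29e-05 and 1.91e-09) and 1 did not pass (-0.83, adjusted p = 0.0776), while 0 of the 4 passed between diplotene and round spermatids, with differences from -0.74 to -0.14 (adjusted p = 0.104 to 0.889). Of the 2 other Nek2 probe sets, 1 rose late against early by 2.23 (adjusted p = 4.42e-06) and 1 did not pass (0.72, adjusted p = 0.0536). Of 6 genes listed for centriole amplification in multiciliated cells, 2 were tested; Deup1 rose by 1.93 (SE 0.51, adjusted p = 0.00343) and Ccno fell by 1.63 (SE 0.35, adjusted p = 0.000573).

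**Figure D4:**
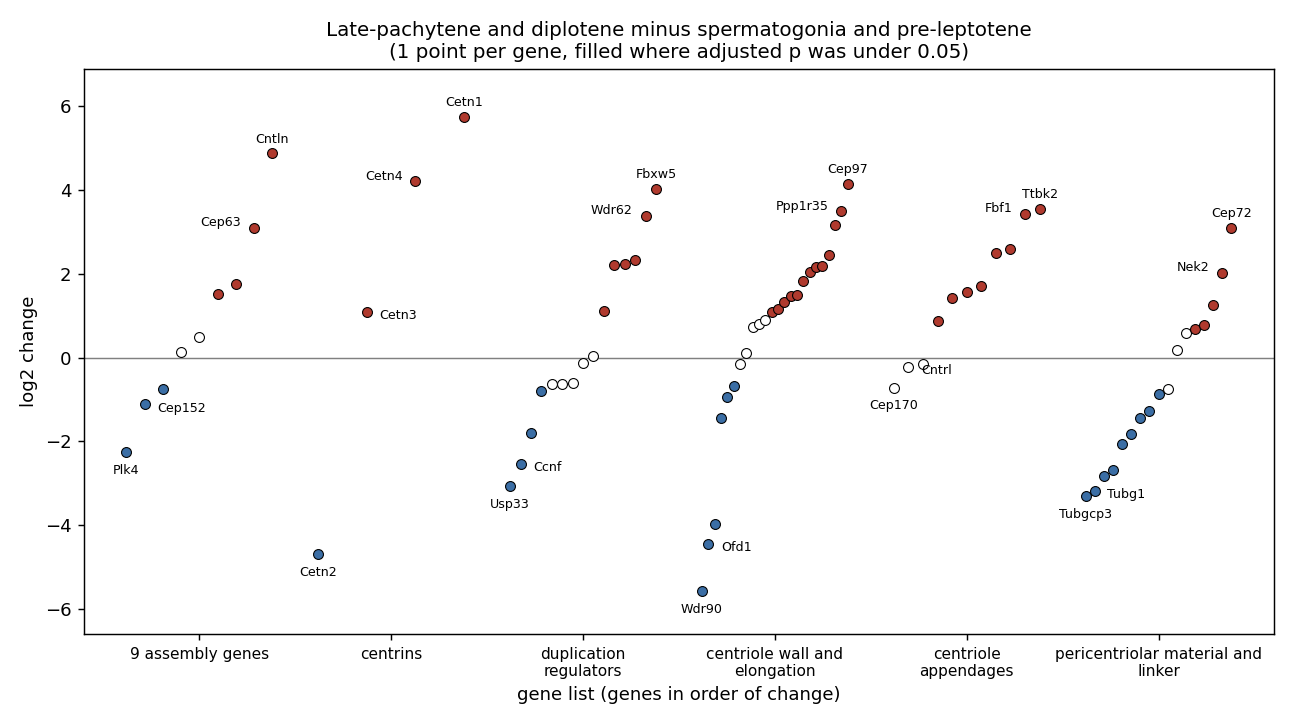
Log2 change between late-pachytene with diplotene and spermatogonia with pre-leptotene (vertical axis) of each tested gene, by list and ordered within it (horizontal axis). Filled points had an adjusted p under 0.05, red above 0 and blue below, and those of Plk4 and Cntln are descriptions. The 8 called appendage genes all lie above 0, while the pericentriolar list has 5 above and 9 below.

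Plk4 belongs in dividing cells to the genes of the S to M phases. Of 11 such genes tested, 8 fell and 1 rose late against early, with a median change of -1.24, beside 37.7% of all probe sets called lower and a median of -0.26. Their summed signal was 34900 to 55400 in spermatogonia, 17300 to 18400 in mid-pachytene, 11600 to 15300 in diplotene and 12600 to 19000 in round spermatids. The sum thus did not fall from diplotene to round spermatids, where the brightest Plk4 set did. Whether the Plk4 change goes with that of these genes was not tested. Over the 20 arrays, with values under 5 raised to 5, the genes whose probe sets followed the brightest Plk4 set most closely were Kansl2 (Pearson r = 0.986), Lig1 (0.982), Rpl7l1 (0.982), Magi3 (0.981) and Axin1 (0.981). Those closest to Cntln were Dlat (0.990), Wdr17 (0.986), Asb7 (0.984), Daam1 (0.981) and Nt5el (0.980). The arrays share fractions and projects, so the coefficients describe a common course over the fractions and carry no p.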

How the data were processed

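Testis cells of 20 pooled samples were sorted and hybridised to Affymetrix MOE430 version 2.0 arrays. The deposited table holds linear GC-RMA signal intensities, which the authors computed in GeneSpring GX with background correction and normalization between arrays. No source used here gives the GC-RMA version. Normalization between arrays makes changes relative to the rest of the transcripts. Fractions came from the sample labels. Signals were taken to log2, and limma 3.58.1 in R 4.3.3 (lmFit, eBayes) fitted the 8 fractions on the 20 arrays (12 residual degrees of freedom), using the 22396 probe sets at or above 5 on at least 2 arrays, two-sided, adjusted by Benjamini-Hochberg at 0.05. The single early- and late-pachytene arrays were assumed to vary like the others. The labels call the arrays biological replicates, but each pools several sorts, and p-values measure the spread between such pools. Arrays of 1 array project, a name found by equal signals in a supplementary table of the study and in part uncertain, deviated together (21 pairs, median r = 0.439, lowest 0.123), and project was used as a block and within-project values were computed. The number of arrays limits the precision. Exact permutation tests, motif searches and plots used Python 3.11.15, scipy 1.17.1, pandas 2.3.3 and matplotlib 3.10.9. The fits were also run on simulated data with independent noise. Those data lacked the shared deviation of arrays of 1 project, so they cannot show its effect on the calls.

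Named were all 9 genes with every probe set (the main one having the highest mean), the 4 centrins, the 2 largest called rises and falls per list and comparison at most, and the 5 genes closest to Plk4 and to Cntln. Cep250 and Cep68 were added after their values were seen. The members and lists were chosen with earlier results of these data known. The 11 alternatives covered normalization, filters, a floor, blocks, the samples fitted, the variance model, the probe set and each array left out, and 1 more, without spermatogonia, was chosen after seeing the data. Gene names followed the platform annotation, by which 34945 probe sets have 1 gene, 932 several and 9160 none; 34741 of the first matched a RefSeq gene.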

Additional observations from a re-analysis of the deposited data

How the results depend on the processing

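The number of the 9 genes called was within 1.5 times the main one under the changes of normalization, filter, floor, block, variance model and probe set. That number counts Plk4 and Cntln, whose values are descriptions in the mid-pachytene and the late comparison. Of the 7 other genes, mid-pachytene against leptotene-zygotene called 2, or 1 with no filter. Median centring moved the median change of all tested probe sets late against early from -0.26 to 0.03. With 1 array left out at a time, 0 of the 7 genes other than Plk4 and Cntln were called for leptotene-zygotene against pre-leptotene. For mid-pachytene against leptotene-zygotene, 1 to 2 of the 7 were called without 1 leptotene-zygotene array. Cep63 and Ccp110 lost their calls without mid-pachytene replicate 2. Late against early, 5 to 6 of the 7 were called without 1 early array. For round spermatids against diplotene, 1 to 2 of the 7 were called without 1 round spermatid array. Plk4 and Cntln lost their calls there without diplotene replicate 1. With another probe set the fall of Plk4 in round spermatids turned to 0.45 (adjusted p = 0.342), its late difference was -0.53 and the late rise of Sass6 0.24 (adjusted p = 0.419). The fall of Ttbk2 in round spermatids turned to 0.31 with its other probe set. Ccp110 between leptotene-zygotene and mid-pachytene lost its call with no filter (adjusted p = 0.0566) and on those fractions alone (adjusted p = 0.076). Stil was called late against early under several settings, at up to 0.75. Replicate numbers pair the arrays only in part: 33 of 37 pairs of equal number had a correlation of deviations over 0.1 (median 0.335, lowest -0.172). With replicate number as a block, on the 18 numbered arrays, 0, 2, 6 and 1 of these 7 genes were called in the 4 comparisons in the order above. Of the wider set 61 genes were called with this block, against 57 without it. The cause of these changes was not tested.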
